A study of Mus musculus with 8 samples.

Results

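The mitochondrial genome of the mouse is a small circular DNA, and the 37 genes it carries were followed here in CD8+ T cells before and after culture. They were taken as every gene symbol in the count tables that begins with "mt-", which gave 37 of 48321 symbols: 13 protein-coding genes, 2 ribosomal RNA (rRNA) genes and 22 transfer RNA (tRNA) genes. All 37 matched the mitochondrial chromosome of the GENCODE M21 annotation (GRCm38, the assembly also called mm10). The 8 libraries came from peripheral CD8+ T cells of the spleen of C57BL/6 mice and formed 4 groups of 2 libraries, WT at day 0, KO at day 0, WT at day 5 and KO at day 5. The series gives the mice as *Satb1* F/F with *E8I-cre*, a Cre transgene active in peripheral CD8+ T cells, and gives the cells as cultured in vitro. The labels state genotype only as WT or KO, so whether the WT mice carried floxed alleles or the transgene is not given in the sources used here, and neither are age, stimulus or whether 2 libraries of a group came from separate animals. P-values therefore measure only the spread between these libraries.

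The 13 proteins are all subunits of the oxidative phosphorylation system, which carries electrons to oxygen and uses the resulting proton gradient to make ATP. The 7 *mt-Nd* genes (*mt-Nd1*, *mt-Nd2*, *mt-Nd3*, *mt-Nd4*, *mt-Nd4l*, *mt-Nd5* and *mt-Nd6*) belong to complex I, *mt-Cytb* to complex III, *mt-Co1*, *mt-Co2* and *mt-Co3* to complex IV and *mt-Atp6* and *mt-Atp8* to complex V, the ATP synthase. All other subunits are encoded in the nucleus and imported. Both strands of the mitochondrial DNA are transcribed as long RNAs that span many genes, and the tRNAs lie between the mRNAs and rRNAs and are cut out to free them. CD8+ T cells that are activated in culture divide and grow, and are known to enlarge their mitochondrial mass.

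*Satb1*, which encodes a nuclear chromatin-binding protein, was the targeted gene and served to check the labels. *Satb1* was at 97.8 and 91.6 CPM (read counts scaled to a common library size, with TMM factors) in WT at day 0, at 144 and 125 in KO at day 0, at 96.5 and 116 in WT at day 5 and at 56.5 and 62.3 in KO at day 5. The fitted log2 fold change of KO against WT was 0.51 ± 0.15 (SE) at day 0 (edgeR quasi-likelihood test, Benjamini-Hochberg adjusted p = 0.125) and -0.84 ± 0.15 at day 5 (edgeR, adjusted p = 0.0162). Which part of the gene was deleted is not given in the sources used here. Because the day 0 values go against the label, those libraries are called the libraries labelled KO throughout. Gene counts totalled 4170126 to 11117971 per library. The summed level of 6 markers of CD8 T cells was 11263 to 12196 CPM at day 0 and 6842 to 7717 CPM at day 5, while *Cd4* stayed at or below 0.96 CPM and *Ms4a1*, *Lyz2*, *Ncr1*, *Hba-a1* and *Ppbp* at or below 3.39 CPM in every library. Of the other B cell markers, *Cd79b* was at 118 to 164 CPM at day 0 and 66.7 to 83.3 CPM at day 5, while *Cd79a* stayed at or below 2.26 CPM. The CD4 T cell list (*Cd4* and *Zbtb7b*) summed to 0.226 to 2.20 CPM at day 0 and 2.41 to 2.998 CPM at day 5, higher in all day 5 libraries. The myeloid list summed to 10.2 to 19.0 and 4.06 to 5.87 CPM. The NK cell, red cell and platelet lists stayed at or below 1.43, 0.904 and 0.537 CPM. The part of these shifts in the results was not tested.

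The mitochondrial genes held a smaller share of the transcriptome at day 5 than at day 0. Their share of all counts assigned to genes was 1.96% and 1.74% in WT at day 0, 1.82% and 1.67% in the day 0 libraries labelled KO, 0.615% and 0.479% in WT at day 5 and 0.507% and 0.449% in the day 5 libraries labelled KO. All 4 day 5 libraries lay below all 4 day 0 libraries, and the libraries labelled WT and KO overlapped at both days. The mean share was 1.85% ± 0.155 (SD, n = 2) at day 0 and 0.547% ± 0.0963 (SD, n = 2) at day 5 in WT, a 3.38-fold difference, and 1.75% ± 0.103 (SD, n = 2) and 0.478% ± 0.0412 (SD, n = 2) in the libraries labelled KO, a 3.65-fold difference. The 95% Wilson interval of each share spanned at most 0.0125 percentage points to either side, which covers counting error only. A share is relative to all other RNA in the library, and in bulk samples fewer cells of a type and less RNA per cell cannot be told apart.

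One gene carried most of that difference. *mt-Cytb*, the only mitochondrially encoded subunit of complex III, held 58.7% to 59.6% of the mitochondrial counts in the day 0 libraries and 26.9% to 39.1% in the day 5 libraries. By counts it ranked 1, 1, 2 and 2 among all genes in the 4 day 0 libraries and 30, 79, 66 and 93 in the 4 day 5 libraries. With *mt-Cytb* left out, a choice made after the values were seen, the share was 0.675% to 0.805% at day 0 and 0.328% to 0.375% at day 5, and the days still did not overlap. The rRNA genes moved the other way within the mitochondrial total, from between 5.91% and 6.31% at day 0 to between 14.0% and 19.1% at day 5. The ratio of *mt-Cytb* counts to counts of *mt-Rnr2*, the large rRNA, was 10.9 to 11.3 at day 0 and 1.75 to 3.40 at day 5.

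**Figure D1:**
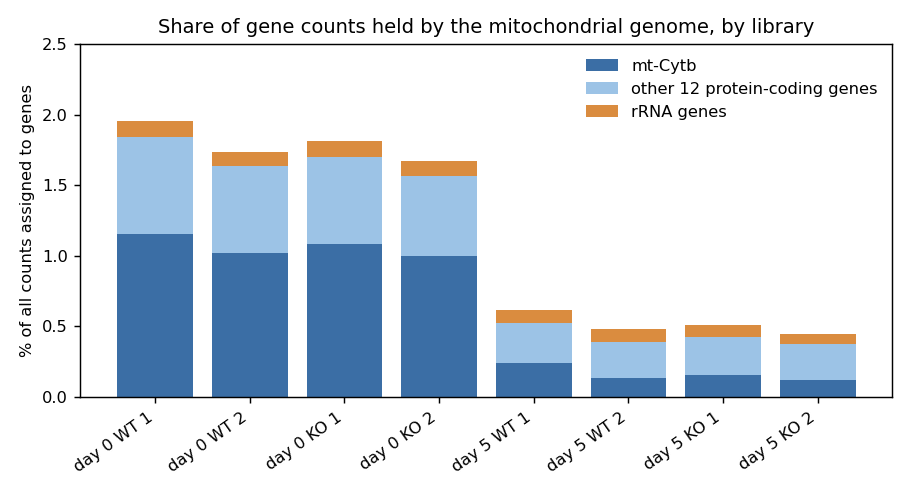
Percent of all gene counts held by the mitochondrial genes in each of the 8 libraries, with mt-Cytb, the other 12 protein-coding genes and the rRNA genes stacked (the 22 tRNA genes together held too little to be visible). The day 0 bars reach 1.67% to 1.96% and the day 5 bars 0.449% to 0.615%, and the rRNA segment differs least between days.

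The genes differed widely in level, although many lie on the same primary transcript. Levels of the 13 protein-coding and 2 rRNA genes are compared here only as CPM per kilobase of annotated length. Whether mRNA was selected for the libraries is not stated here, so the order of mRNA and rRNA genes describes counts alone. *mt-Cytb* was highest at day 0 with 8841 ± 623 CPM per kilobase (SD over 4 libraries). *mt-Nd1*, a core subunit of the membrane arm of complex I, followed at 1755 ± 189, and *mt-Co1*, the catalytic subunit of complex IV, at 1520 ± 96.3, and the ranges of these neighbours overlapped. Then came *mt-Rnr2* at 573 ± 36.0 and *mt-Nd6* at 532 ± 43.2, which also overlapped, *mt-Nd4* at 425 ± 42.6 and *mt-Nd2* at 394 ± 47.8, overlapping again, *mt-Nd5* at 321 ± 32.4, which overlapped *mt-Nd2*, and *mt-Rnr1*, the small rRNA, at 145 ± 17.5. The other 6 protein-coding genes were far lower. *mt-Atp6* was at 13.7 ± 1.87, *mt-Atp8* at 10.1 ± 2.55, *mt-Co3* at 4.13 ± 0.547, *mt-Co2* at 2.68 ± 0.845, *mt-Nd4l* at 0.973 ± 1.02 and *mt-Nd3* at 0.384 ± 0.256 CPM per kilobase.

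At day 5 the order had changed in part. *mt-Cytb* remained first at 1513 ± 541 CPM per kilobase, followed by *mt-Co1* at 909 ± 109 and *mt-Nd1* at 773 ± 160, and the ranges of the latter pair overlapped. *mt-Rnr2* was at 455 ± 35.6, and below it *mt-Nd2* (178 ± 23.9), *mt-Nd6* (173 ± 34.5) and *mt-Rnr1* (161 ± 13.4) overlapped. *mt-Nd4* stood at 130 ± 18.1 and *mt-Nd5* at 117 ± 17.7, the lowest of the 9 genes with a mean of at least 100 counts. The ranges of *mt-Nd4* and *mt-Nd5* overlapped, and that of *mt-Nd4* also reached those of *mt-Nd6* and *mt-Rnr1*. *mt-Rnr1* lay below *mt-Nd5* at day 0 and above it at day 5, without overlap at either day. Each of these 9 genes had at least 350 counts in every library.

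The low levels fell together with sequence that the nuclear genome also carries. HTSeq gives no gene a read with more than 1 alignment, and such reads made up 31.8% to 34.5% of records in the day 0 libraries and 35.7% to 37.4% in the day 5 libraries. Every 50-base window of each mitochondrial gene, the read length, was therefore searched in the annotated GENCODE transcripts of the nuclear chromosomes. At least 1 such window was found in 15 annotated genes. Of these, 7 were unprocessed pseudogenes that lie side by side on the minus strand of chromosome 1 at chr1:24611535-24616197 (GRCm38), a stretch of 4663 bases that follows the mitochondrial order from *mt-Co1* to *mt-Nd4*. The share of windows found there or in another annotated gene was 100% for *mt-Co2*, 99.9% for *mt-Co3*, 99.5% for *mt-Atp6*, 98.8% for *mt-Nd4l* and 98.0% for *mt-Nd3*, and these were 5 of the 6 low protein-coding genes. It was 62.2% for *mt-Nd4*, 51.1% for *mt-Co1*, 8.19% for *mt-Nd2*, 7.61% for *mt-Nd5* and 1.04% for *mt-Rnr2*. No window of *mt-Cytb*, *mt-Nd1*, *mt-Nd6* or *mt-Rnr1* was found in another annotated gene. Only transcripts were searched, so these shares are lower limits.

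The sequences show how alike the copies are. The first 60 bases of *mt-Co2* (chrM:7013-7072, plus strand), of *mt-Nd3* (chrM:9459-9518, plus strand) and bases 1054 to 1113 of *mt-Co1* (chrM:6381-6440, plus strand) are shown above their counterparts in *Gm28661* (chr1:24615506-24615565), *Gm28438* (chr1:24613060-24613119) and *Gm29216* (chr1:24616138-24616197), which are all read from the minus strand. Capitals mark bases that differ within a pair, and the *mt-Co2* pair has none.
mt-Co2: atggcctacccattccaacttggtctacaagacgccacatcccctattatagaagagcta
Gm28661: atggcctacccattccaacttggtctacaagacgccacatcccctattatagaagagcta
mt-Nd3: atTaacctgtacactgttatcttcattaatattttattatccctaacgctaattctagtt
Gm28438: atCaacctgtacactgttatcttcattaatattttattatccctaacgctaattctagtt
mt-Co1: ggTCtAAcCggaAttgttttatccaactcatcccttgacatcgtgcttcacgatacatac
Gm29216: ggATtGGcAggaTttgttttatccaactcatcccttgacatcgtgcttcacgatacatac
Counted from 1 at the first base of the mitochondrial gene, *Gm28438* differed from *mt-Nd3* by T3C alone over 345 bases. *Gm29216* covers the end of *mt-Co1* from base 1054 and differed by T1056A, C1057T, A1059G, A1060G, C1062A and A1066T over 492 bases, so that the sequences were the same after base 1066. *Gm28661*, *Gm28437* (*mt-Co3*), *Gm10925* (*mt-Atp6*), *Gm10222* (*mt-Nd4l*) and *Gm28439* (the first 876 bases of *mt-Nd4*) matched their counterparts with 0 differences over the compared length. The 7 copies themselves had at most 72 counts in a library. The counts of *mt-Co2*, *mt-Co3*, *mt-Atp6*, *mt-Nd3* and *mt-Nd4l* hold only reads the aligner placed once, and their levels are uncertain. Reads set aside were not counted per gene, so their part in the low levels was not tested. With the length replaced by the number of windows found in no other annotated gene, the order given above turned in part. *mt-Co1* was then at 3213 ± 204 CPM per kilobase of such windows at day 0 (SD over 4 libraries), above *mt-Nd1* at 1850 ± 199 with no overlap, and at 1921 ± 231 at day 5, above *mt-Cytb* at 1581 ± 565 in mean, with overlapping ranges. *mt-Nd4* was at 1168 ± 117 at day 0, above *mt-Rnr2* (598 ± 37.5) and *mt-Nd6* (587 ± 47.7), and at 356 ± 49.6 at day 5, above *mt-Rnr1* (170 ± 14.1).

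*mt-Atp8*, a small subunit of the ATP synthase, was also low but held no shared window. On chromosome 1 the copies of its neighbours, *Gm28661* and *Gm10925*, are 233 bases apart, and the 2 mitochondrial genes are 230 bases apart with *mt-Atp8* between them. The sequence of that nuclear gap was not used here. *mt-Atp8* also overlaps *mt-Atp6* by 43 bases (chrM:7927-7969, GRCm38, plus strand), a stretch shorter than the read length. By HTSeq's usual rule a read that touches both genes is assigned to neither. Records set aside as ambiguous were 0.466% to 0.571% of a library. They were not counted per gene, so their part in the low level of *mt-Atp8* was not tested. The end of *mt-Atp8* (chrM:7907-7969) and the start of *mt-Atp6* (chrM:7927-7989) show the overlap in capitals, since both genes contain these bases.
mt-Atp8 end: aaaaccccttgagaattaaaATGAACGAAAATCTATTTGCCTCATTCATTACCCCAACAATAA
mt-Atp6 start: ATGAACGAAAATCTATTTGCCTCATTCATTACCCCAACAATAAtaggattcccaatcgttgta
*mt-Nd6* is the only protein-coding gene on the minus strand, together with 8 tRNA genes. Its last 14 bases overlap the end of *mt-Nd5* on the other strand (chrM:13552-13565), shown in capitals in the last bases of *mt-Nd5* (chrM:13532-13565, plus strand).
mt-Nd5 end: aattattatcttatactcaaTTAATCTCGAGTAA
The strand setting of the counting is not given in the sources used here, so counts of *mt-Nd6* cannot be told apart from RNA of the opposite strand.

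**Figure D2:**
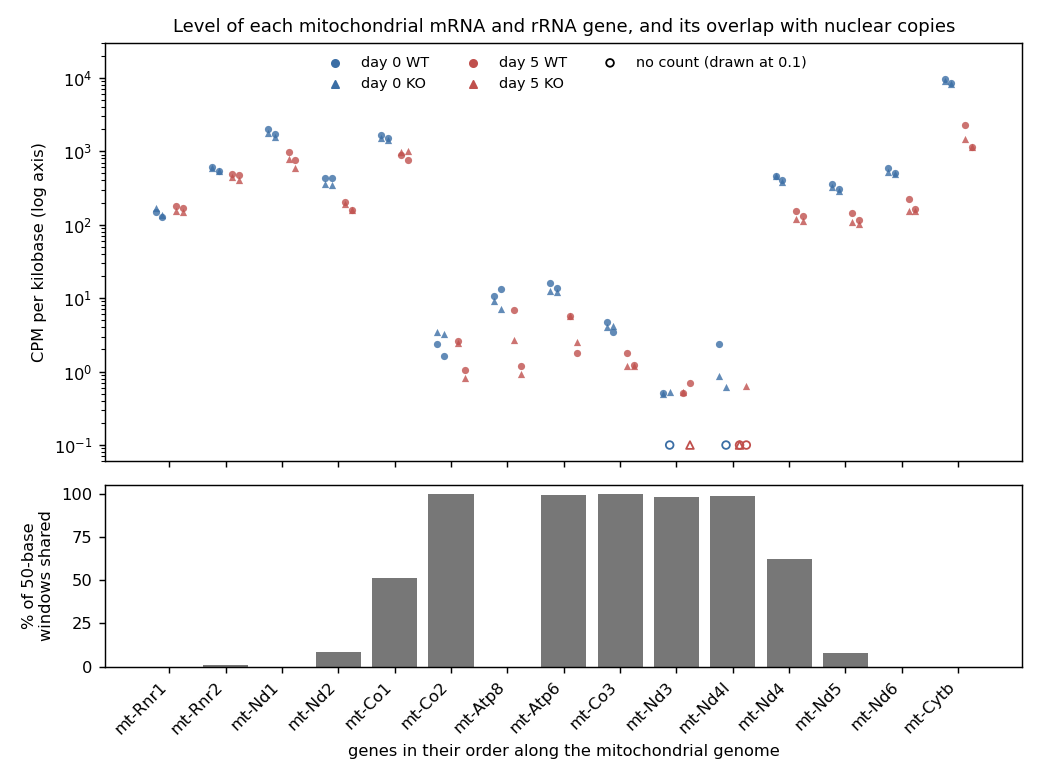
Upper panel, CPM per kilobase on a log axis for the 13 protein-coding and 2 rRNA genes in genome order, 1 point per library (circles WT, triangles labelled KO, open symbols no count). Lower panel, percent of 50-base windows of each gene found in another annotated gene. The 5 genes with 98.0% or more shared windows had mean day 0 levels of at most 13.7 CPM per kilobase, and mt-Cytb with none was highest.

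The day 5 against day 0 comparison asked which mitochondrial RNAs changed over the culture under each label. Of the 37 genes, 21 passed the filter on low counts: 11 protein-coding genes, both rRNA genes and 8 tRNA genes. In WT, 11 of the 21 were called lower and 0 higher, and in the libraries labelled KO 14 were called lower and 0 higher (edgeR quasi-likelihood test, Benjamini-Hochberg adjusted p under 0.05 over 12597 genes), with 10 called in both. Among all genes tested 23.6% were called lower and 24.7% higher in WT (48.3% in either direction), and 24.0% and 26.2% in the libraries labelled KO (50.2% in either direction). When 1 library labelled KO was left out, fewer mitochondrial genes were called under that label, and also fewer among all genes tested. Of the 21, 12 averaged under 100 counts and 8 passed the filter through their day 0 libraries alone (*mt-Co2*, *mt-Co3*, *mt-Atp8*, *mt-Te*, *mt-Tm*, *mt-Tq*, *mt-Tt* and *mt-Tw*). A call of lower at day 5 draws on that selection, so these counts are a description and the 8 genes are given below by their levels, with no test. Of the 9 with a mean of at least 100 counts, 7 were called lower in WT and 8 in libraries labelled KO, and in 8 of the 9 all day 5 libraries lay below all day 0 libraries, which held for 25.8% of all genes tested.

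*mt-Cytb* fell the most of these 9. Its level at day 0 was 11022 and 9758 CPM in WT, next to 10297 and 9379 CPM under the KO label. At day 5 it was 2618 and 1325 CPM in WT, next to 1692 and 1291 CPM under the KO label. WT replicate 1 was the highest day 5 library and still lay far below every day 0 library. The log2 fold change was -2.40 ± 0.24 (SE) in WT, 5.27-fold lower (edgeR, adjusted p = 5.66e-06), and -2.72 ± 0.25 in the libraries labelled KO, 6.60-fold lower (edgeR, adjusted p = 1.81e-06). Only 2.94% of genes tested in WT and 2.15% in libraries labelled KO had a more negative log2 fold change.

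The 5 complex I genes with a mean of at least 100 counts all fell under both labels. *mt-Nd4* was at 635, 553, 637 and 520 CPM at day 0 (WT 1 and 2, labelled KO 1 and 2) and at 213, 181, 165 and 157 CPM at day 5. It fell by 1.59 ± 0.14 (SE) on the log2 scale in WT and by 1.85 ± 0.14 in the libraries labelled KO (edgeR, adjusted p = 1.63e-06 and 3.89e-07). *mt-Nd6* was at 257 to 308 CPM at day 0 and 79.1 to 117 CPM at day 5, with log2 fold changes of -1.51 ± 0.16 and -1.74 ± 0.16. *mt-Nd5* was at 521 to 659 CPM and then at 187 to 260 CPM, with log2 fold changes of -1.37 ± 0.14 and -1.54 ± 0.14. The days did not overlap for any of these genes, which encode subunits of the membrane arm.

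The complex I genes at the other end of the order fell less in fitted value. *mt-Nd1* was at 1912, 1627, 1700 and 1477 CPM at day 0 and at 931, 727, 745 and 556 CPM at day 5, and *mt-Nd2* was at 357 to 454 CPM and then at 163 to 213 CPM. Log2 fold changes were -1.09 ± 0.16 in WT and -1.29 ± 0.16 in libraries labelled KO for *mt-Nd1*, and -1.25 ± 0.15 and -1.03 ± 0.14 for *mt-Nd2*. Adjusted p over these 5 genes ranged from 3.89e-07 to 0.000135 (edgeR). *mt-Nd3* and *mt-Nd4l* never exceeded 4 counts and were not tested.

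Of complex IV, *mt-Co1* fell least among the 7 called protein-coding genes with enough counts. It was at 2536, 2361, 2322 and 2175 CPM at day 0 and at 1370, 1182, 1498 and 1566 CPM at day 5. The log2 fold change was -0.94 ± 0.11 (SE) in WT, 1.92-fold lower (edgeR, adjusted p = 1.90e-05), and -0.55 ± 0.11 in the libraries labelled KO, 1.47-fold lower (edgeR, adjusted p = 0.00112). *mt-Co3* was at 2.71 to 3.76 CPM and then at 0.920 to 1.41 CPM, and *mt-Co2* at 1.13 to 2.40 CPM and then at 0.568 to 1.76 CPM, with overlap between days only for *mt-Co2*. Both genes passed the filter through day 0 alone.

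Of complex V, *mt-Atp6*, the proton channel subunit of the ATP synthase, was at 11.1, 9.50, 8.58 and 8.26 CPM at day 0 and at 3.88, 1.20, 3.86 and 1.70 CPM at day 5. It was called lower under both labels (edgeR, adjusted p = 0.00453 and 0.0119), with log2 fold changes of -1.94 ± 0.47 (SE) in WT and -1.59 ± 0.46 in libraries labelled KO. Without WT replicate 1 at day 5 the WT value was -3.05, without replicate 1 labelled KO at day 5 the value under that label was -2.28, and without replicate 2 labelled KO at day 5 its call was lost (adjusted p = 0.123). *mt-Atp8* had 1 to 22 counts per library.

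The rRNA genes, which build the mitochondrial ribosome, had the smallest fitted changes of the 9 well counted genes. *mt-Rnr2* was at 975, 860, 934 and 860 CPM at day 0 and at 770, 759, 706 and 647 CPM at day 5, so the days did not overlap. Its log2 fold change was -0.26 ± 0.11 (SE) in WT (edgeR, adjusted p = 0.0733) and -0.41 ± 0.11 in the libraries labelled KO (edgeR, adjusted p = 0.00994), and the latter call was lost without replicate 1 labelled KO at day 0 or without replicate 2 labelled KO at day 5 (adjusted p = 0.0908 and 0.108). *mt-Rnr1* was at 141, 123, 161 and 129 CPM at day 0 and at 169, 159, 145 and 141 CPM at day 5, and the days overlapped. Its log2 fold change was 0.31 ± 0.14 in WT and -0.02 ± 0.14 in libraries labelled KO (edgeR, adjusted p = 0.0885 and 0.915). The sign for *mt-Rnr1* changed with the scaling in the libraries labelled KO and with a GC content and length offset under both labels, so no direction is given.

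The tRNA genes were close to the limit of detection. They are 59 to 75 bases long, and all 22 together had 64 to 356 counts in a library. No library had a count for *mt-Tg*, *mt-Th* or *mt-Tk*, which allows up to 0.257 CPM in the deepest library and 0.723 CPM in the shallowest (3 counts per library), and 12 of the 22 never exceeded 10 counts. *mt-Ti*, the isoleucine tRNA, had 0 to 12 counts and *mt-Ts1*, a serine tRNA, 3 to 13 counts per library, and neither passed the filter. The best counted was *mt-Tp*, the proline tRNA, at 15.9, 14.5, 10.1 and 11.2 CPM at day 0 and at 10.1, 3.37, 5.15 and 6.25 CPM at day 5. Its log2 fold change was -1.13 in WT (edgeR, adjusted p = 0.0277) and -0.90 in libraries labelled KO (adjusted p = 0.0721). The WT call was lost in 5 of 18 alternatives (the GC content and length offset, DESeq2, without either WT library at day 0 and without WT replicate 2 at day 5), and the WT value was -2.14 without WT replicate 1 at day 5. *mt-Tq*, the glutamine tRNA, was at 2.57 to 4.11 CPM at day 0 and 0.482 to 1.24 CPM at day 5 and did not overlap between days, but passed the filter through day 0 alone, as did *mt-Te*, *mt-Tm*, *mt-Tt* and *mt-Tw*, the glutamate, methionine, threonine and tryptophan tRNAs. *mt-Te* was at 1.58 to 2.68 CPM at day 0 and 0 to 0.882 CPM at day 5, and *mt-Tm* was at 3.09 to 7.24 CPM at day 0 and 0.379 to 2.82 CPM at day 5. *mt-Tt* was at 3.67 to 5.88 CPM at day 0 and 0 to 2.82 CPM at day 5, and *mt-Tw* was at 0.918 to 1.81 CPM at day 0 and 0 to 1.94 CPM at day 5. *mt-Ta*, the alanine tRNA, at 1.63 to 2.49 and then 1.93 to 3.49 CPM, and *mt-Tc*, the cysteine tRNA, at 2.40 to 4.07 and then 1.70 to 4.76 CPM, overlapped between days.

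**Figure D3:**
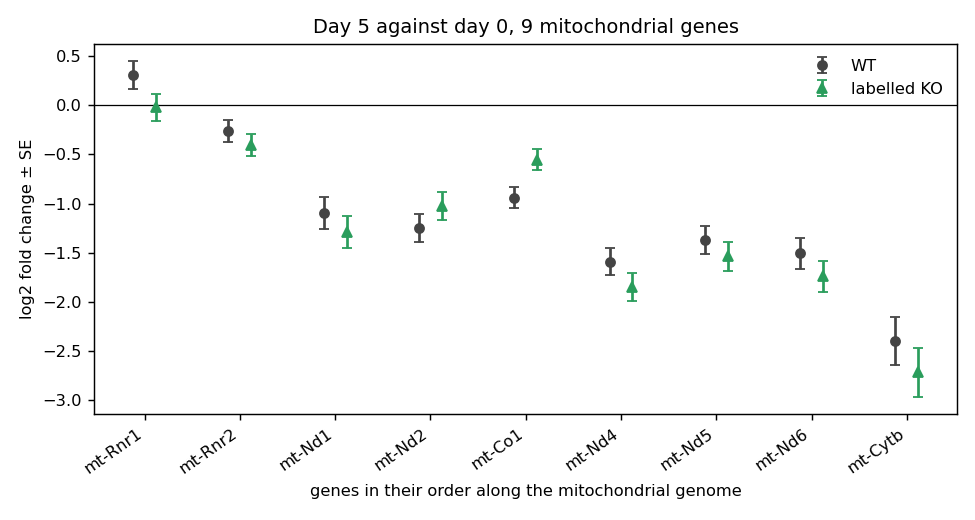
Log2 fold change of day 5 against day 0 with its standard error for the 9 mitochondrial genes with a mean of at least 100 counts, in genome order, for WT (circles) and the libraries labelled KO (triangles). Values run from 0.31 and -0.02 for mt-Rnr1 to -2.40 and -2.72 for mt-Cytb.

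The fitted changes were also set against the position of the genes. In the numbering of the reference, *mt-Rnr1* starts at base 70 and *mt-Cytb* at base 14145 of chromosome M. Across the 9 genes with enough counts, the log2 fold change and the start position had a Pearson correlation of -0.86 and a Spearman correlation of -0.90 in WT, and of -0.88 and -0.88 in the libraries labelled KO. Without *mt-Cytb* the Pearson values were -0.81 and -0.85 over 8 genes, and over the 7 protein-coding genes -0.76 and -0.78. For the 8 genes on the plus strand they were -0.88 and -0.89. Single genes broke the order. *mt-Co1* (start at base 5328) fell less than *mt-Nd1* (base 2751) and *mt-Nd2* (base 3914). *mt-Nd4* (base 10167) fell more than *mt-Nd5* and *mt-Nd6* after it. *mt-Tp*, which lies past *mt-Cytb* but on the minus strand, had the smaller values given above. These are descriptions, looked for after the values were seen: the genes share libraries and primary transcripts, and the rRNA genes are also the first in order.

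Among the nuclear genes that supply the other subunits of the same complexes, more rose than fell. Of 71 nuclear subunit genes of complexes I, III, IV and V, all tested, 43 rose and 0 fell in WT, and 45 rose and 1 fell in the libraries labelled KO (edgeR, adjusted p under 0.05). Among all genes tested 24.7% rose and 23.6% fell in WT, and 26.2% rose and 24.0% fell with the KO label. DESeq2 called 44 and 47 of the 71, against 5179 (WT) and 5334 (KO label) of the 34404 genes with a count in any library. The median log2 fold change was 0.62 (WT) and 0.55 (KO label), against -0.04 and -0.05 over all genes tested. For complex I the median of 36 nuclear genes was 0.46 in WT, with 19 higher, and 0.55 in the libraries labelled KO, with 20 higher and 1 lower. For complex III, where *mt-Cytb* fell 5.27-fold and 6.60-fold, the 9 nuclear genes had medians of 0.64 and 0.50, with 5 higher under each label. For complex IV the 11 genes had medians of 0.66 and 0.72, with 7 and 9 higher, and for complex V the 15 genes had medians of 0.67 and 0.50, with 12 and 11 higher. *Ndufv3*, an accessory subunit of complex I, rose from between 156 and 179 CPM to between 399 and 475 CPM, with log2 fold changes of 1.40 ± 0.13 (SE) and 1.31 ± 0.13. The other genes with the largest called changes in WT were *Cox7c* (1.41), *Ndufc2* (1.28), *Atp5g2* (1.19), *Cox7a2* (1.18) and *Atp5k* (1.09), on the log2 scale. Under the KO label they were *Cox6a1* (1.43), *Cox5a* (1.12), *Atp5d* (1.11), *Ndufb8* (1.09) and *Atp5f1* (1.05). *Cox5a* was low, at 1.84 to 4.83 CPM at day 0 and 4.41 to 5.30 CPM at day 5 over both labels. Its SE was 0.43 (edgeR, adjusted p = 0.0442). *Cox6a1* was also lower under the KO label at day 0, as given below. *Cox7a2* of complex IV went from between 118 and 134 CPM to between 233 and 304 CPM, and *Atp5f1* of complex V from between 286 and 322 CPM to between 505 and 658 CPM. The gene that fell was *Ndufa1* of complex I (log2 fold change -0.39 ± 0.14 SE, edgeR adjusted p = 0.0361), singled out after its value was seen, which was at 0.36 ± 0.14 and not called in WT.

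**Figure D4:**
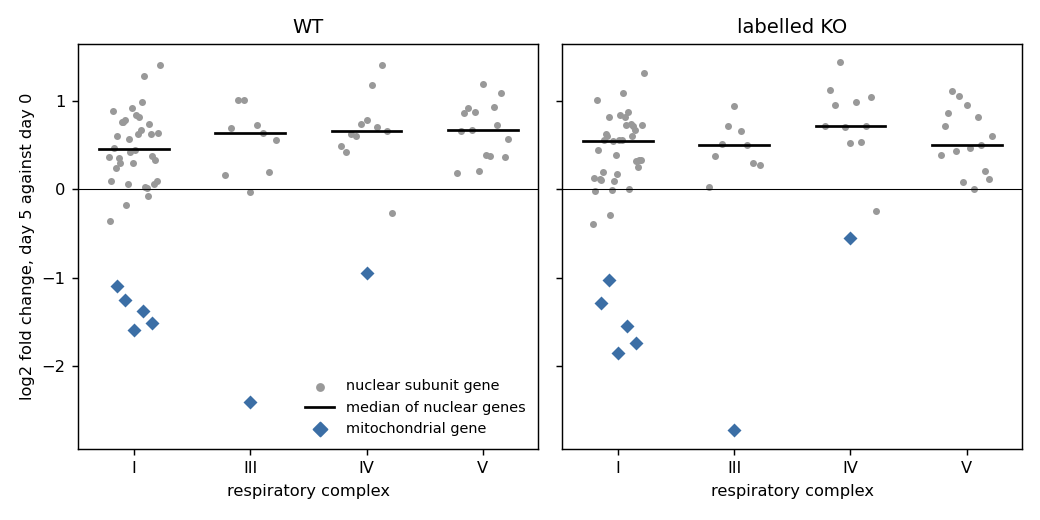
Log2 fold change of day 5 against day 0 for nuclear subunit genes (grey points, black line at their median) and mitochondrial subunit genes with a mean of at least 100 counts (blue diamonds) of complexes I, III, IV and V, in WT and the libraries labelled KO. Nuclear medians lie between 0.46 and 0.72 and every mitochondrial gene plotted lies below zero.

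The genes that copy and transcribe the mitochondrial DNA were called by edgeR about as often as all genes tested. Of 24 such genes 5 rose and 7 fell in WT (48.3% of all genes were called in either direction), and 5 rose and 5 fell in the libraries labelled KO (50.2% of all genes), with medians of -0.02 and 0.00. DESeq2 called 9 and 6 of the 24, against 5179 and 5334 of 34404 genes. The genes below are examples. *Polrmt*, the mitochondrial RNA polymerase, was at 5.90 to 9.73 CPM at day 0 and at 2.65 to 4.06 CPM at day 5 and fell by 1.07 ± 0.38 (SE) and 1.22 ± 0.36 on the log2 scale (edgeR, adjusted p = 0.0349 and 0.0136). *Peo1*, the helicase of mitochondrial DNA replication, fell by 1.05 ± 0.23 in WT. *Mgme1*, an exonuclease of mitochondrial DNA, rose from between 18.7 and 25.0 CPM to between 53.7 and 68.0 CPM, *Lonp1*, a protease of the matrix, from between 21.1 and 27.2 to between 49.4 and 95.9 CPM, and *Dna2*, which also acts in nuclear DNA replication, from between 0.358 and 2.20 to between 15.3 and 28.0 CPM. *Tefm*, the elongation factor of mitochondrial transcription, rose by a log2 fold change of 0.97 ± 0.19 in the libraries labelled KO. *Primpol*, a primase-polymerase, rose by 0.96 ± 0.19 (WT) and 0.80 ± 0.18 (KO label).

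Of 29 genes of mitochondrial RNA processing and stability, 4 rose and 9 fell in WT. In the libraries labelled KO 6 rose and 9 fell, and the medians were -0.11 and -0.24. These edgeR counts, too, lay near the 48.3% and 50.2% that edgeR called among all genes tested. DESeq2 called 11 and 12 of the 29, against 5179 and 5334 of 34404 genes. The genes below are examples. *Fastkd1* and *Fastkd5*, members of a family of mitochondrial RNA-binding proteins, were at 9.09 to 13.2 and 20.7 to 25.5 CPM at day 0 and at 2.65 to 4.54 and 8.92 to 13.1 CPM at day 5, and both fell under both labels. *Nsun4*, which methylates the small mitochondrial rRNA, fell from between 74.7 and 96.7 CPM to between 34.6 and 41.1 CPM, and *Mrm1*, a methyltransferase of the large rRNA, from between 17.6 and 22.9 CPM to between 9.66 and 12.7 CPM. In WT *Fastk* and *Ftsj2* also fell, with log2 fold changes of -1.20 and -0.79, and under the KO label *Rnmtl1* fell (-1.06) and *Pde12* rose (1.59).

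No mitochondrial gene was called between the labels. At day 0, edgeR called 0 of the 21 genes tested when the KO label was set against WT, and DESeq2 called 0. An unadjusted p under 0.05 was found for 0 of them by edgeR. Among all genes edgeR called 1.8%, and 13.8% had an unadjusted p under 0.05. At day 5, 0 were called by edgeR and 0 by DESeq2, and 2 had an unadjusted p under 0.05 by edgeR. Among all genes edgeR called 1.63%, and 14.1% had an unadjusted p under 0.05. *mt-Nd2* had the largest difference at day 0 among the 9 well counted genes, at 448 and 454 CPM in WT and 376 and 357 CPM in the libraries labelled KO, which did not overlap (log2 fold change -0.30 ± 0.14 SE, edgeR adjusted p = 0.379). *mt-Co1* did not overlap between the labels at day 0 either (2536 and 2361 CPM in WT, 2322 and 2175 CPM under the KO label). For *mt-Cytb* at day 0 the log2 fold change was -0.08, with an interval of 2 SE from -0.54 to 0.39.

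At day 5, *mt-Co1* was the only one of the 9 with a positive difference. Its 2 libraries labelled KO (1498 and 1566 CPM) lay above both WT libraries (1370 and 1182 CPM), a fitted log2 difference of 0.26 ± 0.11 SE (edgeR, adjusted p = 0.294). *mt-Tt*, the other gene with an unadjusted p under 0.05, had 16 counts or fewer in each day 5 library. The other 8 of the 9 had negative values, from -0.07 for *mt-Nd2* to -0.40 for *mt-Cytb*, none of them called. For *mt-Nd4*, *mt-Nd5*, *mt-Nd6*, *mt-Rnr1* and *mt-Rnr2* both libraries labelled KO lay below both WT libraries. Separation of the labels was therefore not particular to *mt-Co1*. For 4 of the 8 the sign turned under an alternative fit, with values up to 0.22 for *mt-Nd2*, 0.10 for *mt-Rnr1* and 0.076 for *mt-Rnr2*, and for *mt-Cytb* as follows. The value of *mt-Cytb* rested on single libraries: it was -0.40 ± 0.23 SE with all libraries (edgeR, adjusted p = 0.479), 0.18 without WT replicate 1 at day 5 (adjusted p = 0.632) and -0.81 without WT replicate 2 at day 5 (adjusted p = 0.0304). *mt-Nd1*, *mt-Nd4* and *mt-Nd6* were at -0.35 ± 0.16, -0.29 ± 0.14 and -0.34 ± 0.16 SE (edgeR, adjusted p = 0.358, 0.378 and 0.361).

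**Figure D5:**
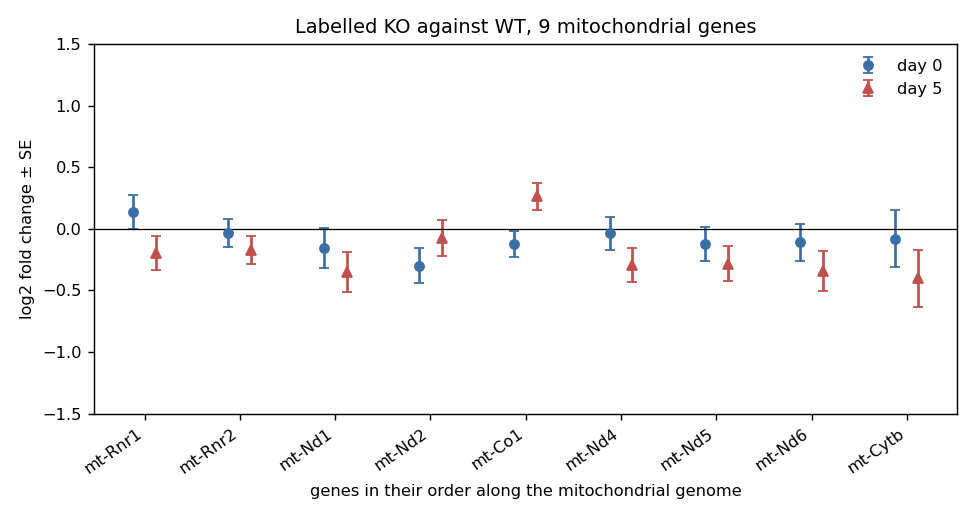
Log2 fold change of the libraries labelled KO against WT with its standard error for the 9 mitochondrial genes with a mean of at least 100 counts, at day 0 (circles) and day 5 (triangles), on a linear axis from -1.5 to 1.5. No value passed the adjusted threshold, and at day 5 mt-Co1 alone lies above zero.

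The change over culture was not shown to differ between the labels for any of the 21 genes. The genotype by day interaction called 0 of them by edgeR and 0 by DESeq2, with 1 at an unadjusted p under 0.05 by edgeR. Among all genes tested edgeR called 0.159%, and 12.4% had an unadjusted p under 0.05. The gene below that unadjusted limit was *mt-Co1*, with an interaction of 0.39 ± 0.15 SE on the log2 scale (edgeR, adjusted p = 0.341), the difference between its falls of 0.55 and 0.94. For *mt-Cytb* the interaction was -0.32 ± 0.33 SE, with an interval of 2 SE from -0.98 to 0.33.

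The nuclear partners were set beside these results. At day 0, 3 of the 71 nuclear subunit genes were lower in the libraries labelled KO (edgeR, adjusted p under 0.05, against 1.8% of all genes in either direction), with 8 at an unadjusted p under 0.05, against 13.8% of all genes, and 4 called by DESeq2. The 3 were *Uqcrc1* of complex III, *Cox6a1* of complex IV and *Ndufa10* of complex I, and their log2 fold changes were -1.12, -1.23 and -0.94. At day 5 the median of the 71 genes was -0.17, against 0.00 over all genes tested, and 0 were called by edgeR, with 19 at an unadjusted p under 0.05, against 14.1% of all genes, and 3 called by DESeq2. The interaction called 0 of the 71 by edgeR, with 8 at an unadjusted p under 0.05, against 12.4% of all genes, and 1 called by DESeq2. Among 34404 genes DESeq2 called 277 at day 0, 319 at day 5 and 139 in the interaction. Of the 24 genes of mitochondrial DNA maintenance and transcription, 0 were called between the labels at day 0, at day 5 or in the interaction by edgeR or DESeq2, with 3, 3 and 1 at an unadjusted p under 0.05, against 13.8%, 14.1% and 12.4% of all genes. Of the 29 genes of RNA processing and stability, 0 were called at day 0 or in the interaction by edgeR or DESeq2. At an unadjusted p under 0.05 there were 4 at day 0, 7 at day 5 and 4 in the interaction, against the same shares of all genes. At day 5 the only gene of the 29 called by edgeR (1.63% of all genes were called) was *Pde12*, which trims poly(A) tails of mitochondrial RNA, higher in the libraries labelled KO (log2 fold change 1.57 ± 0.25 SE, edgeR adjusted p = 0.00829).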

How the data were processed

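RNA was sequenced from splenic CD8+ T cells in 8 libraries, 2 each of WT and KO at day 0 and day 5. Per the labels, Trizol-extracted total RNA was made into libraries with an NEBNext Ultra RNA kit and read to 50 bases. The authors deposited raw read counts per gene symbol, neither normalized nor pooled. The submitters' processing notes name HISAT2 2.1.0, HTSeq 0.11.1 and mm10 (GRCm38). The strand setting and annotation of the counting are not given in the sources used here. Reads placed more than once or on overlapping genes were set aside by the counting program, and these and the other summary lines (27.5% to 33.7% of records in no gene, 10.6% to 12.9% not aligned) stayed out of library sizes.

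Counts were fitted with edgeR 4.0.16 in R 4.3.3 (quasi-likelihood, TMM, filterByExpr with a minimum count of 10, a mean per group, all 8 libraries), which left 12597 genes with a common biological coefficient of variation of 15.0%. P-values were two-sided and adjusted by Benjamini-Hochberg over these genes, and an adjusted p under 0.05 was called. A standard error is the log2 fold change divided by the root of its F statistic. CPM use the TMM-scaled total of the tested genes. Replicate counts differed by more than sampling noise (chi-square per degree of freedom 4.69 to 9.40). Alternatives were DESeq2 size factors, library totals alone, scaling without the mitochondrial genes, no filter, at least 5 CPM in 2 libraries, 4 libraries only, a replicate block, the edgeR 4 form, an offset for GC content and length (available for 96.9% of tested genes), DESeq2 1.42.0 and leaving out each library, after which the lone library of a group is assumed to vary like the others.

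The mitochondrial genes, the lists and the markers were chosen with earlier results of these data known. Every symbol beginning with mt- was accounted for, and list genes were named if called, up to 6 per list and comparison with the largest fold changes, besides 1 gene named as the exception in its list. A permutation test of the mitochondrial share had been planned and is not given, since the share is a score over genes taken up with results known. 1 marker gene was left out and is not reported here.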

Additional observations from a re-analysis of the deposited data

How the results depend on the processing

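The 7 protein-coding mitochondrial genes with a mean of at least 100 counts were called lower at day 5 under both labels under all 18 alternatives. With library totals alone, all genes tested shifted in median log2 fold change from -0.04 to -0.17 (WT) and from -0.05 to -0.23 (KO label). With these totals 15 and 16 mitochondrial genes were called, against 6228 and 6691 of 12597 genes tested. The log2 ratio of the mitochondrial share at day 5 to that at day 0 was -1.81. It was -1.98 for protein-coding genes only, -2.04 without genes with over 50% of windows shared and -1.07 without *mt-Cytb*, the last chosen after seeing the data. Leaving out 1 library gave -1.91 to -1.75.

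Between the labels at day 5, 1 mitochondrial gene (*mt-Cytb*) was called with no filter on low counts, and leaving out 1 library gave 0 to 1. The number called in the libraries labelled KO between days was 8 to 16 when 1 library was left out, and in WT 8 to 12. *mt-Rnr2* in WT passed the threshold under 2 of 18 alternatives and *mt-Rnr1* in WT under 1. Among the genes named, signs changed for values that were not called with all libraries. *mt-Rnr1* between days was -0.031 in WT with the GC and length offset, and in the libraries labelled KO 0.015 with DESeq2 size factors, 0.0015 without the mitochondrial genes in the scaling, 0.034 with the offset and 0.018 by DESeq2. Leaving out 1 library, it ranged from -0.17 to 0.16 in the libraries labelled KO. Between the labels, leaving out 1 library gave -0.17 to 0.019 for *mt-Cytb* and -0.041 to 0.32 for *mt-Rnr1* at day 0, -0.81 to 0.18 for *mt-Cytb* at day 5 and -0.76 to 0.26 for its interaction. The causes were not tested.

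Whether same-numbered libraries share an animal is not given in the sources used here. Their deviations from the group mean correlated between -0.07 and 0.23. The highest values were between day 0 and day 5 in WT (0.12) and under the KO label (0.23). With the replicate block 10 mitochondrial genes were called in WT and 14 in libraries labelled KO, against 11 and 14 without it. Among 12597 genes tested it called 5999 and 6291. It ended no call of a mitochondrial gene with a mean of at least 100 counts. Low counts widen the counting error of the tRNA genes, 12 of which never exceeded 10 counts in a library.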
